A study of Mus musculus with 6 samples.

Results

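The 9 genes of MHC class II antigen presentation (*H2-Aa*, *H2-Ab1*, *H2-Eb1*, *Cd74*, *H2-DMa*, *H2-DMb1*, *H2-Oa*, *H2-Ob* and *Ciita*) were taken by symbol from the 20076 genes of the deposited expression table, and all 9 were present. The table holds bulk RNA-seq of primary ovarian tumors, with 3 tumors from wild-type (WT) mice and 3 from *Tgm2* knockout mice. The injected line, ID8 *Trp53*-/- *Brca1*-/-, is a murine ovarian cancer line that lacks *Trp53* and *Brca1*; every mouse received it in the bursa of the ovary, and tumors were taken 6 weeks later. WT mice were C57BL/6, the methods give a single age range for both genotypes, and the strain background of the knockout line is not given in the sources used here. The deletion was in the host only, since the labels list no *Tgm2* edit in the injected cells, and each group received the same edited line. Values are normalized counts, which are read counts per gene scaled so that tumors can be compared; their sums were 34801694, 35325875 and 33916288 in WT 1 to 3, and 32316613, 35827822 and 37717165 in knockout 1 to 3.

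Class II molecules carry peptides from proteins taken up into endosomes to the cell surface, where CD4+ T cells read them. *H2-Aa* and *H2-Ab1* encode the alpha and beta chains of I-A, the class II molecule of C57BL/6 mice, and *H2-Eb1* encodes the beta chain of I-E, which reaches no cell surface in this strain because the alpha chain gene is not expressed. *Cd74* encodes the invariant chain, which blocks the peptide groove until the endosome is reached, H2-DM exchanges the remaining invariant chain peptide for antigen, and H2-O restrains H2-DM. *Ciita* encodes the transactivator that switches these genes on together, mainly in dendritic cells, macrophages and B cells, and in other cells after interferon gamma.

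Shared control is written in the promoters of the class II genes as an X box, read by the RFX complex, and a Y box, read by NF-Y, to which CIITA is recruited. The stretches below are shown because the 9 genes are described as a group and these are the letters through which they are known to be switched on together. They were read from RefSeq windows on GRCm38.p6 that reach from 250 bases before to 50 after each gene's start, and windows were matched by symbol for 6 of the 9 genes, with 2 starts for *H2-DMa*. Capitals mark the Y box core GATTGG, the X box core AACNGATG or, upstream of a Y core, the letters GCAAC from the first part of the X box.
H2-Aa: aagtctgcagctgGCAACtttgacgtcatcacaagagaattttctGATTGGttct
H2-Eb1: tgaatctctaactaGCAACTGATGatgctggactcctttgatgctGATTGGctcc
H2-DMb1: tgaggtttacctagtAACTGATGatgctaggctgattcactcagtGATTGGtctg
H2-Oa: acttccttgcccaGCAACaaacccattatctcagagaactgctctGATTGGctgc
H2-Ob: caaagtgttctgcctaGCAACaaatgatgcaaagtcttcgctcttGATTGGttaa
These lie at chr17:34287863-34287917 on the minus strand (*H2-Aa*) and, on the plus strand, at chr17:34305762-34305816 (*H2-Eb1*), chr17:34153084-34153138 (*H2-DMb1*), chr17:34092290-34092344 (*H2-Oa*) and chr17:34238802-34238856 (*H2-Ob*).

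The Y core was found in the 250 bases before the start of all 6 genes, against 14.6% of the 32851 windows in the RefSeq table, with both strands searched. It began 49 bases before the start of *H2-Aa*, 60 before *H2-Eb1*, 62 before *H2-DMb1*, 44 before *H2-Oa* and 58 before *H2-Ob*. In *H2-DMa* it stood 199 bases before the start in only 1 of its 2 windows. The X core was found in 2 of the 6 genes, *H2-Eb1* and *H2-DMb1*, against 1.98% of all windows, and an X and a Y core with starts at most 45 bases apart in the same 2 genes, against 0.103%. The shorter letters GCAAC, beginning 15 to 45 bases before a Y core on the same strand, were found in 4 of the 6 genes (*H2-Aa*, *H2-Eb1*, *H2-Oa* and *H2-Ob*), against 0.435% of all windows; in *H2-Eb1* they overlap the X core by 3 bases, and they were chosen after the promoters had been read. A further motif of the planned search, the GAS element TTCNNNGAA, was found in 0 of the 6 genes, against 7.02% of all windows. Letters that match are a description of the sequence and do not show binding in these tumors.

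**Figure D1:**
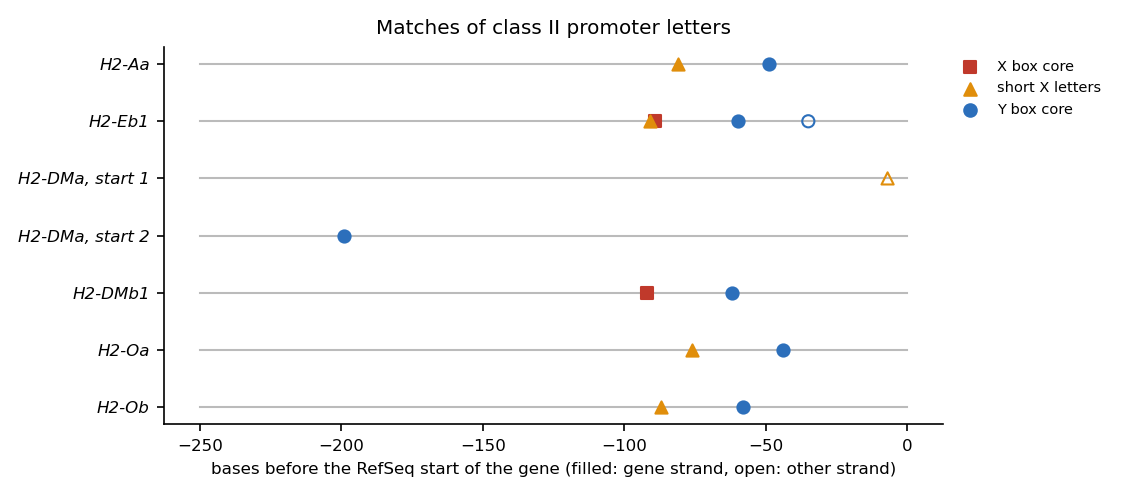
Positions of the X box core (red squares), the short X letters GCAAC anywhere in the window (orange triangles) and the Y box core (blue circles) in the bases before the RefSeq start of 6 class II genes, with 2 starts for *H2-DMa*; filled symbols are on the strand of the gene and open symbols on the other strand. In 5 of the genes a Y core on the gene's strand lies 44 to 62 bases before the start, with X letters 29 to 32 bases further upstream.

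*Tgm2* was first read in every tumor to check the genotype labels. It was at 14978, 12155 and 13180 normalized counts in WT and at 5853, 6071 and 8157 in knockout tumors, so the groups did not overlap and the direction was that of the labels in all 6. The log2 fold change was -1.02 (SE 0.22, adjusted p = 0.391 by limma with Benjamini-Hochberg adjustment over 19667 tested genes, n = 3 per group). *Tgm2* transcripts in the knockout tumors are at levels well above 0, and reads from the injected cells cannot be told apart from reads that remain from the altered host gene.

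The samples are labelled as cancer cells, but they are whole tumors that hold leukocytes, fat and, in some, ovary. *Krt8*, an epithelial keratin, was at 14387, 21948 and 15814 in WT and 10373, 13629 and 14318 in knockout tumors, and *Ptprc*, which encodes the leukocyte surface protein CD45, was at 2326, 1833 and 1583 in WT and 1814, 3035 and 3173 in knockout tumors. *Cyp11a1*, which starts steroid synthesis, was at 8648 in WT tumor 1 and 22480 in knockout tumor 1, but between 158 and 209 in the other 4. *Amh*, a hormone of granulosa cells, was at 2766 in knockout tumor 1 and between 129 and 302 in the others. The 10 ovary genes summed to 17984, 15012 and 7632 in WT and to 44423, 11403 and 12404 in knockout tumors, with *Star* their most abundant gene and 3 of them (*Cyp19a1*, *Fshr* and *Zp3*, named after their values were seen) at 0 in at least 1 tumor. WT tumor 1 and knockout tumor 1 thus stand apart in their ovary transcripts, and the counts of members and of most lists are given with and without them; the part of ovary tissue in the class II values was not tested. In bulk tumors, fewer cells of a type and less RNA per cell cannot be told apart, which holds for every gene below.

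All 9 class II genes had a higher mean in the knockout tumors, but none passed the limits used (adjusted p under 0.05 and a log2 fold change above 1 in either direction). At those limits limma called 20 of the 19667 tested genes higher (0.102%) and 0 lower. At an unadjusted p under 0.05, 5 of the 9 were higher (*H2-Eb1*, *H2-DMa*, *H2-Oa*, *H2-Ob* and *Ciita*) and 0 lower, where 3.4% of all tested genes were higher and 2.38% lower. In 3 of the 9 (*Ciita*, *H2-Oa* and *H2-Ob*) every knockout tumor lay above every WT tumor; in all tested genes this held for 5.18%, and the reverse for 5.33%. The members' log2 fold changes ran from 0.67 to 1.41 with a median of 0.94, while the median of all tested genes was -0.03, and 11.1% of the tested genes had a log2 fold change at least as high as the lowest member. The members' adjusted p-values by limma ran from 0.644 to 0.889. With 3 tumors per group, the smallest p that the exact two-sided permutation test can give for a gene is 0.1.

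The level of class II also varied between tumors of the same genotype. Together the 9 genes took 0.738%, 0.591% and 0.401% of all normalized counts in WT and 0.727%, 1.25% and 1.33% in knockout tumors. Knockout tumors 2 and 3 lay above every WT tumor for all 9 genes. Knockout tumor 1 did so for 3 genes and lay inside the WT range for the other 6. WT tumor 3 had the lowest value of all tumors for 8 of the 9 genes. Without knockout tumor 1 the groups did not overlap for any of the 9 genes (9.64% of all tested genes were then higher without overlap), and without WT tumor 1 they did not overlap for 6 (12% of all tested genes). Leaving out any of the other 4 tumors gave a count of 3, beside 9.4% of all tested genes without WT tumor 2, 9% without WT tumor 3, 10.5% without knockout tumor 2 and 9.56% without knockout tumor 3. At an unadjusted p under 0.05, 8 members were higher without knockout tumor 1 (3.24% of all tested genes) and 4 without WT tumor 1 (4.46%). The count was 3 without WT tumor 2 (2.68%), 2 without WT tumor 3 (3.03%), 1 without knockout tumor 2 (2.77%) and 1 without knockout tumor 3 (3.77%), so it rests on which tumors are included. Leaving out a tumor raised the share of all tested genes higher without overlap from 5.18% to between 9% and 12%. The list counts without single tumors given below are to be read beside these shares. The members' median log2 fold change was 1.29 without knockout tumor 1 and 1.13 without WT tumor 1. At the adjusted limits, 11 genes of the whole table were higher without knockout tumor 1 and 7 without WT tumor 1.

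**Figure D2:**
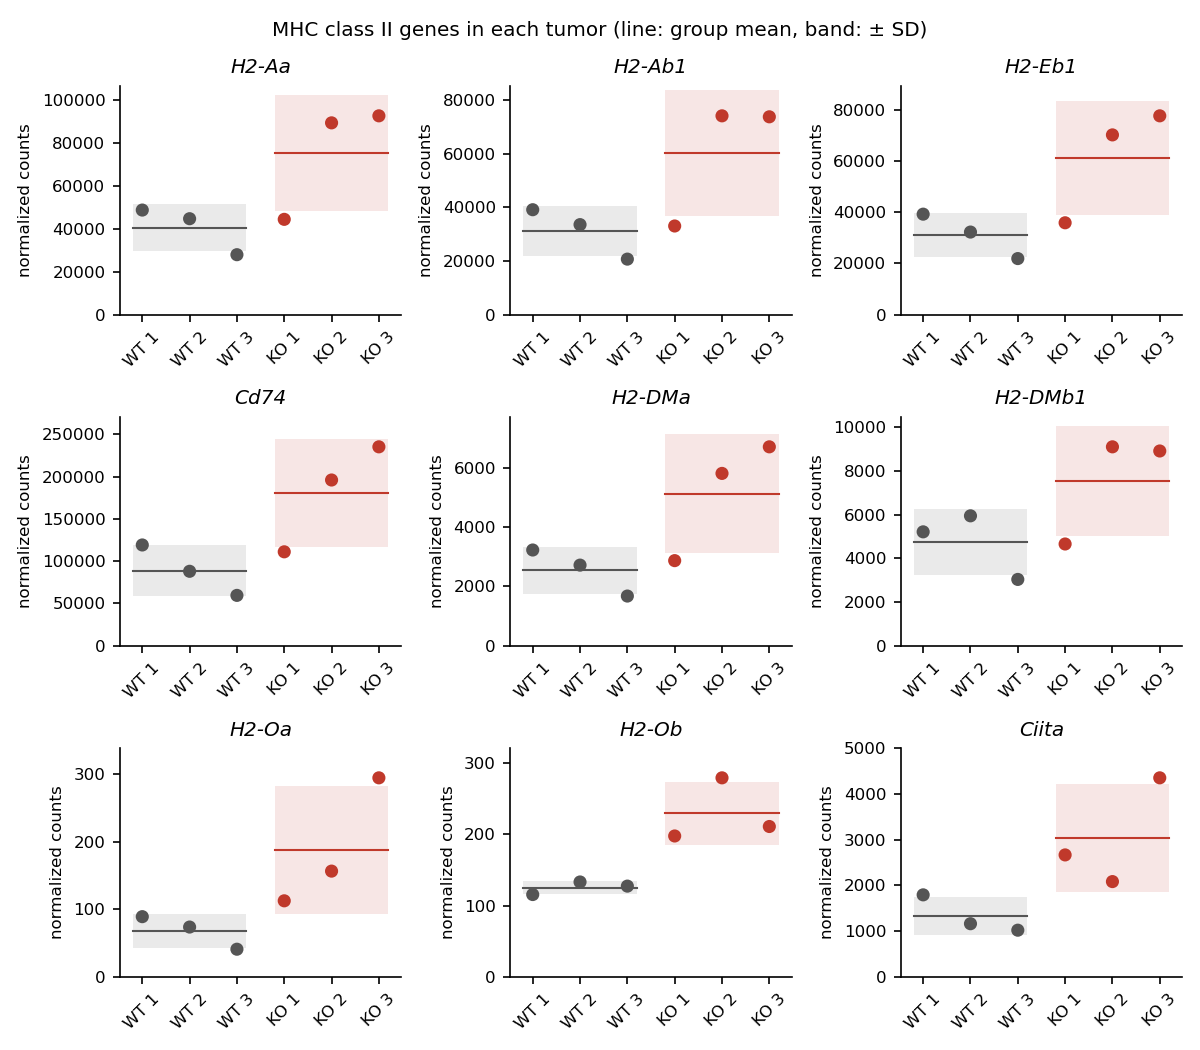
Normalized counts of the 9 class II genes in each of the 6 tumors (points), with the group mean (line) and SD (band); grey is WT and red is *Tgm2* knockout, and each vertical axis starts at 0. Knockout tumors 2 and 3 lie above all WT tumors in every panel, and knockout tumor 1 does so for *H2-Oa*, *H2-Ob* and *Ciita*.

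*Ciita*, the transactivator, lies on the plus strand at chr16:10480059-10528418 (GRCm38, GENCODE M21, the source of the gene positions here apart from the promoters). The promoters were measured from RefSeq starts, which can differ from those of GENCODE. By GENCODE, *H2-DMb1* starts at 34153072, so its promoter stretch lies inside the gene, and *H2-Oa* starts at 34092340, within its stretch. *Ciita* was at 1793, 1161 and 1019 normalized counts in WT and at 2668, 2084 and 4356 in knockout tumors. Every knockout tumor was above the highest WT tumor, and the knockout tumors stood at 2.01, 1.57 and 3.29 times the WT mean. The means were 1324 ± 412 and 3036 ± 1180 (SD, n = 3 each), and the log2 fold change was 1.17 (SE 0.32, 95% interval 0.44 to 1.91, unadjusted p = 0.00606, adjusted p = 0.644 by limma). The exact permutation p was 0.1, the smallest possible.

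The classical chains followed a different order of tumors. *H2-Ab1*, the I-A beta chain (chr17:34257689-34269419, plus strand), was at 39132, 33578 and 20718 in WT and at 33064, 74118 and 73755 in knockout tumors. Knockout tumor 1 lay between WT tumors 2 and 3, while the other two knockout tumors were 2.38 and 2.37 times the WT mean. Its log2 fold change was 0.91 (SE 0.43, 95% interval -0.07 to 1.89, adjusted p = 0.881 by limma). *H2-Aa*, the I-A alpha chain (chr17:34282744-34287823, minus strand), was at 48819, 44786 and 27997 in WT and at 44487, 89498 and 92772 in knockout tumors. Again knockout tumor 1 lay inside the WT range and the others above it, with a log2 fold change of 0.86 (SE 0.42, adjusted p = 0.881 by limma). *H2-Eb1*, the I-E beta chain (chr17:34305867-34316674, plus strand), was at 39250, 32265 and 21916 in WT and at 35889, 70193 and 77635 in knockout tumors. Its groups overlapped in the same way, and the log2 fold change was 0.94 (SE 0.40, 95% interval 0.02 to 1.86, adjusted p = 0.858 by limma).

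The chains of the class II molecules kept nearly fixed proportions in all 6 tumors. The log2 ratio of *H2-Aa* to *H2-Ab1*, the partners of I-A, ran only from 0.27 to 0.43 over the tumors, and that of *H2-Eb1* to *H2-Ab1* from -0.08 to 0.12. These ranges are narrow beside that of the genes themselves, and the groups overlapped for both ratios. *Ciita* did not keep such a proportion. Its log2 ratio to *H2-Ab1* was -4.45, -4.85 and -4.35 in WT and -3.63, -5.15 and -4.08 in knockout tumors, so that knockout tumor 1 had the highest and knockout tumor 2 the lowest value of the 6. Knockout tumor 1 thus had more *Ciita* than any WT tumor at an *H2-Ab1* level inside the WT range, and knockout tumors 2 and 3 had almost the same *H2-Ab1* while *Ciita* was at 2084 in tumor 2 and 4356 in tumor 3.

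**Figure D3:**
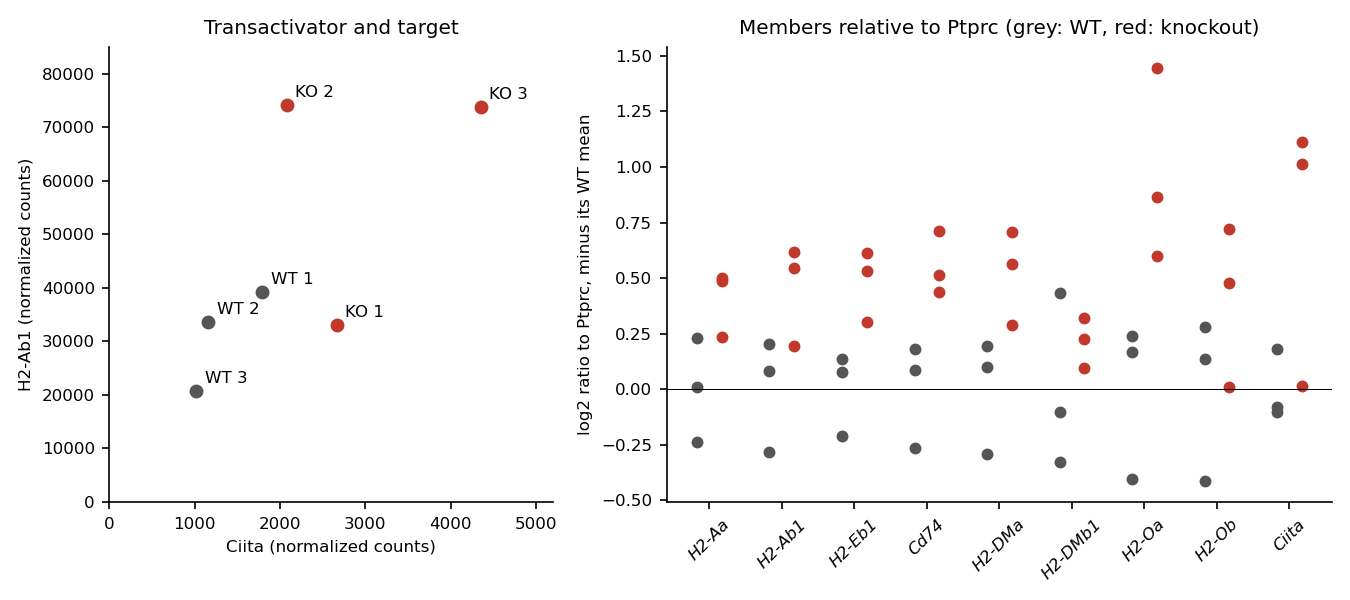
Left: normalized counts of *Ciita* (horizontal) and *H2-Ab1* (vertical) in each tumor. Right: log2 ratio of each class II gene to *Ptprc* in each tumor, minus the mean of the 3 WT tumors (grey, WT; red, knockout). Relative to *Ptprc* the groups do not overlap for *H2-Aa*, *H2-Eb1*, *Cd74*, *H2-DMa* and *H2-Oa* (1.7% of all tested genes were higher without overlap on this scale), and they overlap for the other four, *Ciita* and *H2-Ob* among them.

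*Cd74*, the invariant chain, was the fourth most abundant gene of the whole table by its mean (chr18:60803848-60812652, plus strand). It was at 119191, 88048 and 59543 normalized counts in WT and at 111093, 196056 and 235295 in knockout tumors. Knockout tumor 1 lay just under WT tumor 1, and the other two lay above all WT tumors. The means were 88927 ± 29834 and 180815 ± 63488 (SD, n = 3 each), with a log2 fold change of 1.01 (SE 0.51, 95% interval -0.15 to 2.17, adjusted p = 0.887 by limma). *Cd74* alone took 0.342%, 0.249% and 0.176% of all normalized counts in WT and 0.344%, 0.547% and 0.624% in knockout tumors. Its log2 ratio to *H2-Ab1* stayed between 1.39 and 1.75.

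The H2-DM chains were less abundant than the molecules they load. *H2-DMa*, the alpha chain of the peptide exchanger (chr17:34119541-34139101, plus strand), was at 3231, 2721 and 1677 in WT and at 2872, 5817 and 6714 in knockout tumors. The groups overlapped through knockout tumor 1, and the log2 fold change was 0.98 (SE 0.37, 95% interval 0.14 to 1.81, adjusted p = 0.805 by limma). *H2-DMb1*, a beta chain of H2-DM (chr17:34153072-34160230, plus strand), was at 5212, 5945 and 3034 in WT and at 4656, 9104 and 8913 in knockout tumors. It had the smallest log2 fold change of the 9 genes, 0.67 (SE 0.35, 95% interval -0.12 to 1.46, adjusted p = 0.889 by limma). The log2 ratio of *H2-DMb1* to *H2-DMa* was 0.69, 1.13 and 0.86 in WT and 0.70, 0.65 and 0.41 in knockout tumors, with overlap. *H2-DMb1* shares much of its sequence with its neighbour *H2-DMb2*, so the split of reads between these paralogs is uncertain.

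The H2-O chains, known mainly from B cells and some dendritic cells, were the scarcest members. *H2-Oa*, the alpha chain (chr17:34092340-34095234, plus strand), was at 89.0, 73.6 and 40.7 normalized counts in WT and at 112, 157 and 295 in knockout tumors. The groups did not overlap, with knockout tumor 1 nearest to the WT tumors, and the log2 fold change of 1.41 was the highest of the 9 (SE 0.52, 95% interval 0.21 to 2.61, adjusted p = 0.802 by limma). *H2-Ob*, the beta chain (chr17:34238903-34254414, plus strand), was at 115, 133 and 127 in WT and at 198, 279 and 211 in knockout tumors. Here too the groups did not overlap, the WT tumors lay close together, and the log2 fold change was 0.85 (SE 0.34, 95% interval 0.07 to 1.63, adjusted p = 0.819 by limma). The exact permutation p was 0.1 for each. The log2 ratio of *H2-Oa* to *H2-DMa*, the inhibitor chain against the chain of its target, was -5.18, -5.21 and -5.36 in WT and -4.67, -5.22 and -4.51 in knockout tumors, and that of *H2-Ob* to *H2-DMb1* ran from -5.50 to -4.56 with overlap.

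**Figure D4:**
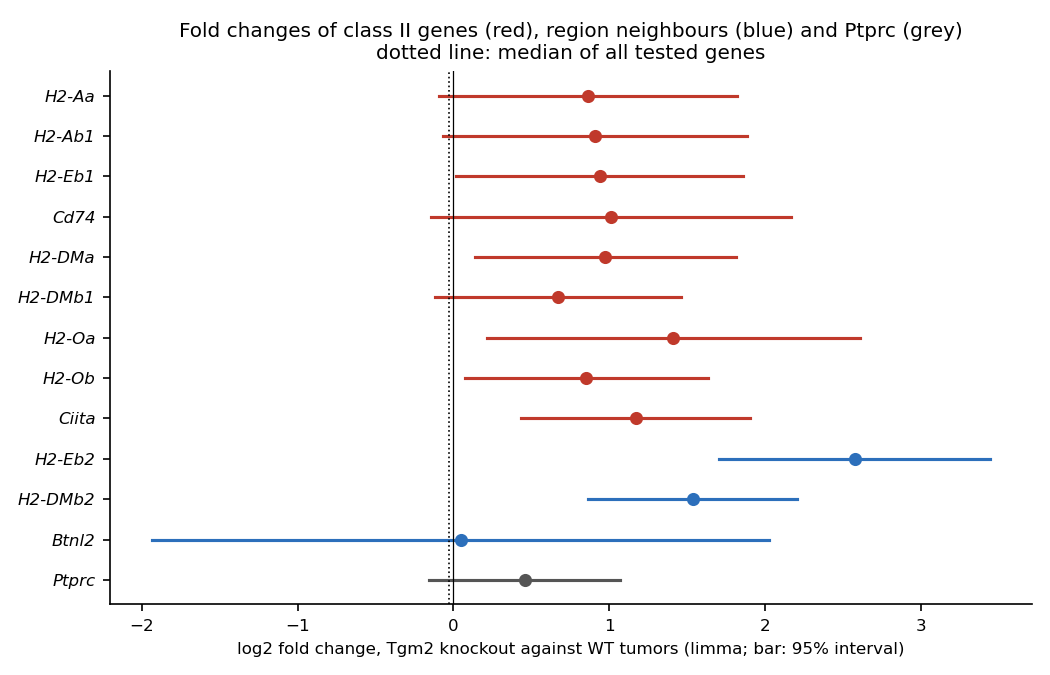
Log2 fold change (points) with its 95% interval (bars) for the 9 class II genes (red), 3 neighbours in the class II region (blue) and *Ptprc* (grey), knockout against WT tumors, from limma on log2(value + 1) with 3 tumors per group; the dotted line is the median of all tested genes (-0.03). All 9 members lie to the right of 0, between 0.67 and 1.41, and *H2-Eb2* lies furthest to the right at 2.58.

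Per kilobase of the longest coding transcript, *Cd74* stood highest with a mean level over the 6 tumors of 95653 normalized counts, followed by *H2-Aa* (51472), *H2-Ab1* (37729), *H2-Eb1* (27676), *H2-DMb1* (4376), *H2-DMa* (1914), *Ciita* (363), *H2-Oa* (118) and *H2-Ob* (66.4). Each gene was above the next within all 6 tumors, except that *H2-Oa* was above *H2-Ob* in 5. Over the tumors as a whole the ranges of neighbours in this order overlapped, apart from *H2-Eb1* against *H2-DMb1* and *H2-DMa* against *Ciita*. Of the 9 genes, 7 lie within 224 kb of chromosome 17, and *Ciita* and *Cd74* lie on other chromosomes.

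The class II region holds other genes of this family, and 2 of them differed by more than any of the 9 members. *H2-Eb2*, a less studied beta chain gene beside *H2-Eb1*, was at 45.4, 46.9 and 44.6 normalized counts in WT and at 247, 261 and 329 in knockout tumors. The groups were far apart, knockout tumor 1 included, with a log2 fold change of 2.58 (adjusted p = 0.0902 by limma), which misses the limit. Without each tumor in turn its log2 fold change stayed between 2.45 and 2.66, and it was 2.45 with the adipocyte list and 2.47 with the leukocyte list as a covariate. *H2-DMb2*, the second beta chain gene of H2-DM, was at 321, 277 and 211 in WT and at 677, 662 and 1028 in knockout tumors, with a log2 fold change of 1.54 (adjusted p = 0.264 by limma). Both had an unadjusted p under 0.05 and no overlap, while *Btnl2* (a butyrophilin-like gene of the region) had neither, at a log2 fold change of 0.05. Reads of *H2-Eb2* and *H2-Eb1* can be split between near copies in the same way as those of the *H2-DMb* genes. *H2-Ea-ps*, the I-E alpha gene, had no row in the table.

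Genes of the proteins that read the class II promoter had a median difference near 0. Of the 7 genes *Rfx5*, *Rfxap*, *Rfxank* (RFX complex), *Nfya*, *Nfyb*, *Nfyc* (NF-Y) and *Creb1*, none had an unadjusted p under 0.05 or groups without overlap, and the median log2 fold change was 0.05, from -0.33 for *Rfx5* to 0.16 for *Rfxap*. Without knockout tumor 2, 2 of the 7 were higher without overlap (10.5% of all tested genes were), and without each of the other 5 tumors 0 were; the median lay between -0.01 and 0.08. *Rfx5* was at 852, 595 and 1539 in WT and at 1056, 513 and 723 in knockout tumors, with its highest value in WT tumor 3, the tumor lowest in class II. Upstream of *Ciita*, interferon gamma was scarce. *Ifng* was at 3.38, 0.774 and 7.39 in WT and at 12.7, 10.2 and 12.1 in knockout tumors. Its groups did not overlap, but such low normalized counts are taken to rest on few reads. *Irf2*, an interferon regulatory factor named after its values were seen, was at 1426, 999 and 1551 in WT and at 1559, 1672 and 2014 in knockout tumors, also without overlap (log2 fold change 0.42, adjusted p = 0.889 by limma). *Ifng* and *Irf2* were the only 2 without overlap among 11 listed genes from interferon gamma to *Ciita*. Of the 11, 9 had a log2 fold change above 0 and 1 an unadjusted p under 0.05 by limma, with a median of 0.36. *Jak1* (0.36) and *Jak2* (-0.13), among the most abundant of the list, overlapped. With each tumor left out in turn, 2 to 7 were higher without overlap (9% to 12% of all tested genes), and the median ran from 0.22 to 0.52.

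Genes that act on class II molecules after their synthesis had smaller median differences than the members. Of 10 genes of antigen processing in endosomes, none had an unadjusted p under 0.05 or groups without overlap, and the median log2 fold change was -0.00. *Ctss*, the cathepsin that trims the invariant chain, was at 21472, 13548 and 9323 in WT and at 11968, 31996 and 27386 in knockout tumors (log2 fold change 0.65), and *Ctsb*, another cathepsin, had a log2 fold change of 0.05. *Ifi30*, the thiol reductase that opens disulfide bonds of antigen, had a log2 fold change of 0.59. Of 10 genes of class II turnover and traffic none passed either measure, with a median of 0.18; *Marchf1*, a ubiquitin ligase that removes class II from the surface, had a log2 fold change of 0.62, and *Cd37* and *Cd9*, both tetraspanins, had 0.87 and -0.58. Of 9 costimulation genes none passed either, with a median of 0.25, and *Cd86*, the most studied partner signal of class II, was at 610, 472 and 525 in WT and at 335, 949 and 804 in knockout tumors. Without knockout tumor 1, 4 genes of antigen processing, 3 of turnover and traffic and 4 of costimulation were higher without overlap (9.64% of all tested genes). An unadjusted p under 0.05 was then found for 2, 3 and 2 (3.24% of all tested genes). Without WT tumor 1, 1, 2 and 2 genes of these lists were higher without overlap (12%), and 0, 1 and 0 had an unadjusted p under 0.05 (4.46%). Over the 6 tumors left out in turn, the median ran from -0.25 (without knockout tumor 2) to 0.23 (without knockout tumor 1) for antigen processing, from 0.08 to 0.22 for turnover and traffic and from 0.05 (without knockout tumor 2) to 0.49 (without WT tumor 1) for costimulation.

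*Cd4*, the T cell coreceptor that binds class II, was at 361, 138 and 160 in WT and at 449, 441 and 893 in knockout tumors. The groups did not overlap, and the log2 fold change was 1.49 (unadjusted p = 0.0104, adjusted p = 0.682 by limma). *Lag3*, an inhibitory receptor that also binds class II, was at 623, 473 and 299 in WT and at 400, 508 and 863 in knockout tumors and overlapped (log2 fold change 0.33).

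The MHC class I pathway gave a comparison with presentation by molecules other than class II. All 15 of its genes had a log2 fold change above 0, with a median of 0.34; 0 had an unadjusted p under 0.05, and *Tapbpl* (named after its values were seen) was the only gene without overlap. Without knockout tumor 1, 10 of the 15 were higher without overlap (9.64% of all tested genes) and 3 had an unadjusted p under 0.05 (3.24%). Without WT tumor 1 these counts were 3 (12% of all tested genes) and 0 (4.46%). Without WT tumor 2 these counts were 2 and 2, and the median ran from 0.12 without WT tumor 3 to 0.57 without knockout tumor 1. *B2m*, the light chain of every class I molecule, was at 87716, 75661 and 37351 in WT and at 55787, 112926 and 110009 in knockout tumors (log2 fold change 0.49), and the heavy chains *H2-K1* and *H2-D1* had 0.41 and 0.34. The highest were the immunoproteasome subunits *Psmb8* at 0.75 and *Psmb9* at 0.73. As with *Cd74*, knockout tumor 1 lay inside the WT range for *B2m* and knockout tumors 2 and 3 above it. The class I log2 fold changes lay between 0.09 and 0.75 against 0.67 to 1.41 for class II; the difference between the pathways was not tested.

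Markers of cells that carry class II were also higher in some knockout tumors. Of 10 genes shared by leukocytes, 1 (*Cd52*) had an unadjusted p under 0.05, and the median log2 fold change was 0.53. Without knockout tumor 1, 7 genes had such a p (3.24% of all tested genes), without WT tumor 1, 3 did (4.46%), and without each of the other 4, 1 did. The median ran from 0.32 without WT tumor 3 to 0.81 without knockout tumor 1. The list summed to 35920, 25306 and 21098 normalized counts in WT and to 25538, 43260 and 48543 in knockout tumors, with *Laptm5* its most abundant gene and no gene at 0. *Ptprc* alone had a log2 fold change of 0.46 (SE 0.27, adjusted p = 0.891 by limma). Relative to *Ptprc*, 5 members had groups without overlap, where 1.7% of all tested genes were higher without overlap on that scale. The log2 ratio of *H2-Aa* was 4.39, 4.61 and 4.14 in WT and 4.62, 4.88 and 4.87 in knockout tumors, that of *Cd74* was 5.68, 5.59 and 5.23 against 5.94, 6.01 and 6.21, and *H2-Eb1*, *H2-DMa* and *H2-Oa* also did not overlap. For *H2-Ab1*, *H2-DMb1*, *H2-Ob* and *Ciita* the groups overlapped on this scale. Of the 3 members without overlap in normalized counts, *H2-Oa* alone had none relative to *Ptprc*, and *Ciita* and *H2-Ob* overlapped. The part of leukocyte content in the class II values was not tested beyond these ratios and the covariate fits given further on.

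Among the cell types, dendritic cell genes were split. Of 16 listed, 6 had an unadjusted p under 0.05 and groups without overlap, all higher, with a median log2 fold change of 0.56 over the list. The genes without overlap were 9 without knockout tumor 1 (9.64% of all tested genes) and 10 without WT tumor 1 (12%). Those at an unadjusted p under 0.05 were 4 without knockout tumor 3 (3.77% of all tested genes). The median ran from 0.41 (without WT tumor 3 or knockout tumor 3) to 0.93 (without WT tumor 1). *Clec9a*, a receptor of cross-presenting dendritic cells, was at 51.1, 86.8 and 73.5 in WT and at 302, 244 and 399 in knockout tumors (log2 fold change 2.15, adjusted p = 0.242 by limma), and *Xcr1*, a chemokine receptor of the same cells, was at 68.2, 60.5 and 27.3 in WT and at 95.8, 166 and 341 in knockout tumors (1.84). The other four, *Flt3*, *Cd209a*, *Clec10a* and *Ccl22*, were named after their values were seen. The most abundant genes of the list, which other cells also express, overlapped, at log2 fold changes of 0.03 for *Bst2*, 0.24 for *Sirpa* and 0.60 for *Fscn1*. The rest of the list overlapped too and was named after its values were seen. These log2 fold changes were -0.10 for *Zbtb46*, 0.19 for *Siglech*, 0.32 for *Ly86*, 0.39 for *Ccr7*, 0.43 for *Batf3*, 0.53 for *Itgax* and 0.89 for *Itgae*. The list summed to 25477, 20646 and 14085 in WT and to 17830, 29109 and 28122 in knockout tumors, with no gene at 0.

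Macrophage and monocyte genes had a median log2 fold change of 0.53 over 15 genes. Of these, 3 had an unadjusted p under 0.05, namely *Ly6c2* of inflammatory monocytes (2.28, adjusted p = 0.212 by limma), the scavenger receptor gene *Cd163* (1.91) and *Mertk* (named after its values were seen), and the first 2 did not overlap. Without knockout tumor 1, 7 had an unadjusted p under 0.05 (3.24% of all tested genes) and 11 did not overlap (9.64%). Without WT tumor 1 these were 3 (4.46% of all tested genes) and 4 (12%). The median was 0.17 without WT tumor 3, 0.22 without knockout tumor 2 and 0.96 without knockout tumor 1. *Lyz2*, the most abundant gene, was at 29726, 25556 and 18857 in WT and at 13429, 52341 and 32517 in knockout tumors, so it was lowest in knockout tumor 1. The list summed to 91781, 69353 and 46607 in WT and to 46132, 143366 and 102681 in knockout tumors, with no gene at 0.

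The summed B cell genes were higher in every knockout tumor, tumor 1 included, than in any WT tumor, as were *H2-Ob*, *H2-Oa*, *Ciita*, *H2-Eb2* and *H2-DMb2*. This was not particular to B cell genes: it also held for the summed plasma cell genes, *Cd4*, *Clec9a*, *Xcr1*, *Lep* and the mean of the adipocyte list. Of 12 B cell genes, 5 had an unadjusted p under 0.05 and 7 had no overlap, all higher, and 1 passed the adjusted limits. That gene, *Cd79a* (a chain of the B cell receptor complex), rose from 114, 91.6 and 74.1 in WT to 686, 593 and 1022 in knockout tumors, a log2 fold change of 3.01 (adjusted p = 0.0264 by limma). That call was lost whichever of the 6 tumors was left out, with an adjusted p by limma from 0.0638 to 0.161 and a log2 fold change from 2.78 to 3.17. *Cd79b* and *Ebf1*, also among the 3 most abundant genes of the list, had log2 fold changes of 1.20 and 0.78, and *Fcrla* had 2.85. The groups overlapped for *Ebf1*, and for *Cd22* (0.61), *Fcer2a* (0.10), *Blk* (0.04) and *Cr2* (-0.32). Apart from *Ebf1*, these were named after their values were seen. The list summed to 1127, 701 and 852 in WT and to 2076, 2091 and 2961 in knockout tumors, its median log2 fold change was 0.95, and no gene was at 0. Of 8 plasma cell genes, 5 had an unadjusted p under 0.05 and 7 had no overlap, all higher, with a median log2 fold change of 2.44. Among the abundant genes of the list, *Xbp1* had 0.51, and *Sdc1* had -0.13 with overlap. The adjusted limits were passed by 2 genes, *Jchain*, which links secreted antibodies, at 4.80 and *Mzb1*, a chaperone of antibody secreting cells, at 4.27. *Jchain* kept its call without each tumor in turn, and *Mzb1* lost it without WT tumor 2 (adjusted p = 0.0692 by limma) and without the variance trend (adjusted p = 0.0630 by limma). With the adipocyte list as a covariate both lost it, at an adjusted p by limma of 0.256 for *Jchain* and 0.404 for *Mzb1*. The part of B cells and plasma cells in the class II values was not tested.

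Adipocyte genes were also higher in the knockout tumors, and genes of cancer cells and epithelium differed less by their median. Of 10 adipocyte genes, 9 had an unadjusted p under 0.05 and 5 had no overlap, all higher, with a median log2 fold change of 1.95; *Lep*, which encodes leptin, passed the adjusted limits at 3.74 and lost that call whichever of the 6 tumors was left out (adjusted p by limma from 0.0533 to 0.284). Without knockout tumor 1 all 10 adipocyte genes were higher without overlap (9.64% of all tested genes), and without WT tumor 2, 9 were (9.4%). Without each of the other 4 the count stayed at 5. The list summed to 41103, 54462 and 28876 in WT and to 44866, 166605 and 95960 in knockout tumors, with *Lpl* its most abundant gene and no gene at 0. Of 8 genes of cancer cells and epithelium, 0 had an unadjusted p under 0.05, 2 keratin genes (*Krt8* and *Krt19*) were lower without overlap, and the median log2 fold change was -0.42 (-0.28 without WT tumor 3). Their sum was 70889, 82912 and 75909 in WT and 62234, 59092 and 68870 in knockout tumors, with *Wt1* the most abundant gene and no gene at 0. When the mean of the adipocyte list was added to the model, 5 members turned negative, from -0.14 for *H2-Eb1* to -0.62 for *H2-DMb1*. *Cd74* went from 1.01 to 0.05 (SE 0.80), *H2-Oa* from 1.41 to 0.56 and *H2-Ob* from 0.85 to 0.42, and *Ciita* was at 1.34. With the mean of the leukocyte list in the model, the members' median was 0.35 and *Ciita* was at 0.87, and with that of the cancer cell and epithelium list they were 0.48 and 0.73. *Ptprc* turned to -0.26 with the adipocyte list. The mean of that list did not overlap between the genotypes (log2 means of 9.75, 10.39 and 9.25 in WT and 10.90, 12.70 and 11.91 in knockout tumors), so fat content and genotype cannot be told apart by such a fit.

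**Figure D5:**
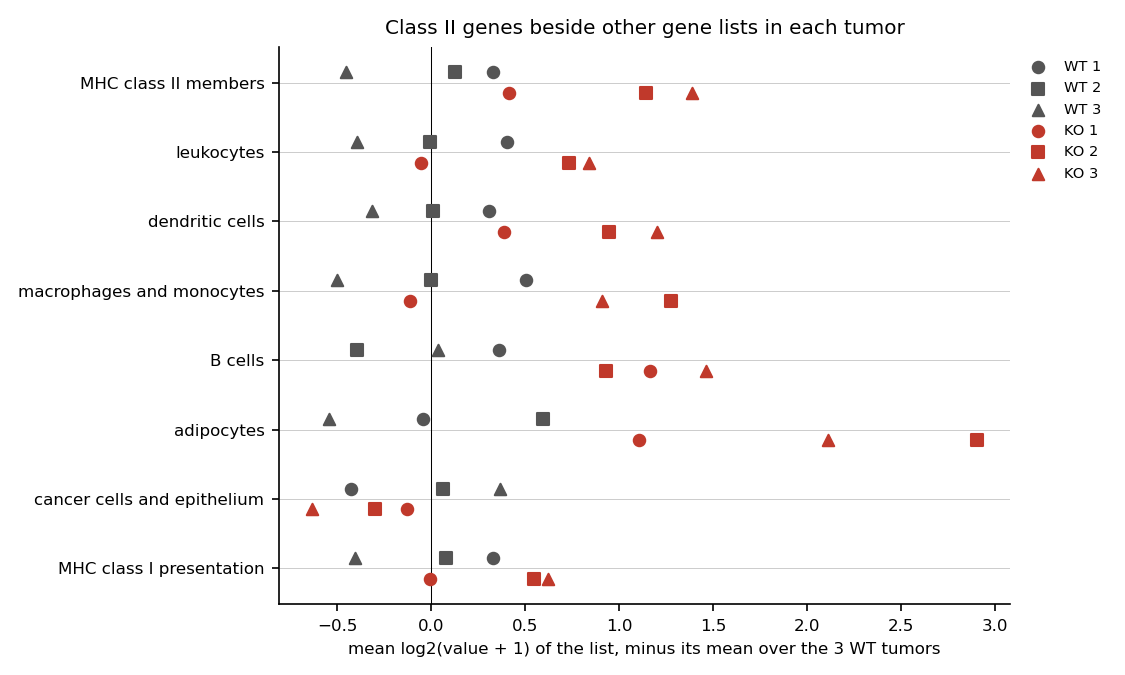
Mean log2(value + 1) of each gene list in each tumor, minus its mean over the 3 WT tumors (grey, WT; red, knockout; circles, squares and triangles are tumors 1, 2 and 3). Knockout tumor 1 lies beside the WT tumors for class I, leukocyte, macrophage and cancer cell genes. It lies just above all WT tumors for class II members (12.43 against 12.35 in WT tumor 1) and dendritic cell genes (8.85 against 8.77). For B cell and adipocyte genes it lies further above them.

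The members varied together over the 6 tumors, though not all in the same order of tumors. The Pearson correlation of each member's log2 values with the mean of the others was between 0.92 and 0.99, except for *H2-Ob* at 0.75 and *Ciita* at 0.80; these points share the same libraries and only 6 tumors, so they are a description. Among 12983 genes outside the group with a mean of at least 100, the 5 most like the members' mean were *Ugt1a6a* (0.997), *Cd52* (0.996), *Samsn1* (0.994), *Spred1* (0.987) and *Cd300lg* (0.987), and 287 genes had a correlation above 0.9. *Cd52*, a small surface protein of lymphocytes and other leukocytes, was at 2593, 2308 and 1544 in WT and at 3197, 5674 and 6507 in knockout tumors. *Cd300lg*, an endothelial receptor of the Cd300 family, was at 159, 115 and 70.4 in WT and at 225, 400 and 497 in knockout tumors. *Spred1*, an inhibitor of the Ras pathway, had the same order of tumors at a far smaller log2 fold change of 0.20.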

How the data were processed

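Poly(A) enriched RNA of 6 primary tumors (3 WT, 3 *Tgm2* knockout), grouped by the genotype label, was analysed from the table the authors deposited. Per the study's methods and the submitters' processing notes, paired reads were quantified with kallisto 0.46.2 (genome build GRCm38), summed to genes through biomaRt, filtered for low expression and scaled with size factors. The deposited signal has the scale of normalized counts; although the table is labelled TPM, its columns sum to between 32316613 and 37717165. They are not whole reads, so no count model was fitted. The limit for low expression and the Ensembl release are not given in the sources used here. The median of the values near 1 lay between 0.946 and 1.08 normalized counts in the tumors. Only values near 1 entered it, so it does not measure depth, which was not compared. Values of a few normalized counts are taken to rest on a few reads. Reads that paralogs share were split by estimate.

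Values were analysed as log2(value + 1) with limma 3.58.1 in R 4.3.3 (linear model of genotype, no covariate, variance trend, two-sided, Benjamini-Hochberg over all tested genes); a gene entered the tests when 3 or more tumors had a value of 1 or more, 19667 of 20076. Fold changes are on this scale. Exact permutation tests and tables used Python 3.11.15. The design had assumed TPM, and the same test was kept. The labels number the tumors as replicates without saying that each came from a separate mouse, so p-values measure the spread between these tumors, and no pair of columns was identical. The models were tested on simulated data.

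The members and gene lists were chosen with earlier results of these data known. Genes named are the members, *Tgm2*, *Ptprc*, the 3 most abundant and 2 most changed genes of each list (any gene of lists of up to 7), and the 5 genes most like the members; others are marked as named after their values were seen. Alternatives changed the pseudocount, filter, scaling, weights, variance trend, limits and replicate block, added list means as covariates, and left out each tumor. The result of 1 gene that this rule would name is not reported here.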

Additional observations from a re-analysis of the deposited data

How the results depend on the processing

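None of the 9 class II genes passed the adjusted limits in any of the fits by limma, and each kept its direction except with the mean of the adipocyte list as a covariate, where *H2-Aa* was at -0.31, *H2-Ab1* at -0.39, *H2-Eb1* at -0.14, *H2-DMa* at -0.22 and *H2-DMb1* at -0.62, as was *Ptprc* at -0.26; the cause was not tested. The members' median log2 fold change of 0.94 became -0.14 with that covariate, 0.35 with the leukocyte list and 0.48 with the list of cancer cells and epithelium. By the unadjusted p with the fold limit, 2 members (*Ciita* and *H2-Oa*), 491 genes higher and 305 genes lower were counted. Of all tested genes, the 20 higher became 5 with the replicate number as a block, 4 without the variance trend, 0 with the adipocyte covariate, 9 with the leukocyte covariate and 12 with the covariate of cancer cells and epithelium; the 0 lower stayed at 0 in these. Leaving out each tumor in turn gave between 2 (without WT tumor 2) and 14 genes higher (without knockout tumor 3) and between 0 and 1 lower, a members' median between 0.71 (without WT tumor 3) and 1.29 (without knockout tumor 1), and between 3 and 9 members without overlap. The count of members at an unadjusted p under 0.05 ran from 1 to 8; for this count and that without overlap, leaving out tumors was added after seeing the data. Whether the replicate numbers pair the tumors is not given in the labels. Deviations from the group means correlated at -0.20, 0.28 and -0.31 between tumors of the same number, and from -0.23 to 0.36 between tumors of different numbers. So few values cannot settle it. Under the block no class II gene passed the limits, and none had passed them without it. The replicate number of 3 per group limits what could be called.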

Other observations

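Other cells of the tumor were read from lists of the same kind. Of 12 T cell genes, all 12 had a log2 fold change above 0, with a median of 0.85; 1 had an unadjusted p under 0.05 by limma (*Cd3g*), 3 did not overlap (*Cd3g*, *Cd247* and *Lck*), and none passed the adjusted limits. Without knockout tumor 1, 5 T cell genes had an unadjusted p under 0.05 (3.24% of all tested genes) and 10 did not overlap (9.64%). Without WT tumor 1 these were 7 (4.46% of all tested genes) and 11 (12%). Without each of the other 4 tumors they were 0 and 3, and the median ran from 0.57 without knockout tumor 3 to 1.10 without WT tumor 1. *Trac*, the constant part of the T cell receptor alpha chain, was at 461, 291 and 195 normalized counts in WT and at 460, 377 and 689 in knockout tumors (log2 fold change 0.73). Of 8 fibroblast genes, 2 (*Pdgfra* and *Lum*) had an unadjusted p under 0.05, with a median of 0.60, and of 8 endothelial genes 1 (*Cdh5*) did, with a median of 0.41; at the same limit these counts were 0 and 0 without knockout tumor 1 and 3 and 4 without WT tumor 1. Without WT tumor 3 the counts were 0 and 0, with medians of 0.13 for fibroblast and 0.27 for endothelial genes. The fibroblast count lay between 1 and 2 without each of the other 3 tumors, where the endothelial count was 0, and the highest fibroblast median was 0.92, without WT tumor 1. Of 10 genes of lymphoid tissue stroma, which would mark lymph node taken with a tumor, 1 (*Glycam1*) did (2 when either knockout tumor 1 or WT tumor 1 was left out, 1 without knockout tumor 2 and 0 without each of the other 3), with a median of 0.46, which ran from 0.21 without knockout tumor 3 to 0.76 without knockout tumor 1, and *Ccl21a*, the most abundant, was at 2506, 1035 and 2266 in WT and at 2586, 1118 and 739 in knockout tumors. *Cd3g* and *Cd247* were named after their values were seen.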
